A study of Gallus gallus with 6 samples.

Results

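The genes described here are the chicken receptors whose names begin with GPR and a digit, ADGR, S1PR, LPAR, PTGER, PTGFR, PTGIR, PTAFR, CYSLTR, LTB4R, FFAR or HCAR, which cover numbered orphan receptors, adhesion receptors and receptors for lipid mediators. Of 16963 genes with an identifier in the deposited tables, 91 matched a name, and the 75 with at least 10 estimated counts summed over the 6 libraries were kept. They comprised 41 orphan GPR genes, 16 adhesion receptors, 9 receptors for sphingosine-phosphate (S1P) or lysophosphatidic acid (LPA), 4 receptors for leukotrienes or platelet-activating factor (PAF) and 5 prostanoid genes. PTGFRN encodes an immunoglobulin-superfamily partner of the prostaglandin F receptor and GPR89A a Golgi anion channel, so these members match the names without being G protein receptors. Genes were kept by name alone, and whether each of the others is a G protein receptor was not checked.

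The libraries came from COVCAR cells, ovarian adenocarcinoma cells grown from the ascites of chickens with ovarian cancer. The 3 primary lines, C27, C29 and C30, were grown to confluence on gelatin, trypsinised and sorted by FACS for the activity of aldehyde dehydrogenase (ALDH), which is commonly used to enrich stem-like tumour cells. Each line gave 1 ALDH- and 1 ALDH+ library, so each fraction had 3 libraries and the fractions could be compared within a line. The labels give no drug, genotype or bird age, all libraries shared the culture and the sort, and the labels do not say whether cells of other types were removed first.

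G protein receptors sit in the cell membrane and turn an outside ligand into a change in cyclic AMP, calcium or other signals through a G alpha subunit. Receptors for S1P, LPA, prostanoids, leukotrienes and PAF read lipids that are made locally from membrane lipids, and LPA is abundant in the ascites of ovarian cancer patients. Adhesion receptors carry long extracellular regions that bind matrix proteins or proteins on neighbouring cells. Many GPR genes keep their orphan names although a ligand is now known, and the roles given below were mostly worked out in human and mouse.

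Total estimated counts per library ran from 22170788 to 26747453, and the receptor genes took 0.0641% to 0.0886% of gene counts in ALDH- libraries and 0.0505% to 0.0605% in ALDH+ libraries. The labelled carcinoma identity was checked against epithelial markers, as CPM, gene counts scaled to a common library size by the trimmed mean of M values. KRT7, a keratin of simple epithelia, stood at 629 to 2940 CPM, while EPCAM, a defining epithelial adhesion molecule, lay between 0.0379 and 1.82 CPM and ESRP1, an epithelial splicing factor, had 4 counts in all. The 9 epithelial markers found summed to 727.2 to 2399.0 CPM in ALDH- and 1164.5 to 3131.3 CPM in ALDH+ libraries. Of these, CDH1, KRT18 and WT1 are taken up below. Fibroblast markers summed to 14128.9 to 37561.6 CPM in ALDH- and 21144.5 to 52073.7 CPM in ALDH+ libraries. Macrophage markers summed to 7111.6, 6700.8 and 12956.7 CPM in ALDH- and to 451.6, 399.6 and 230.0 CPM in ALDH+ libraries, given here and throughout in the order C27, C29, C30. In bulk libraries such as these, fewer cells of a type and less RNA per cell cannot be told apart.

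In a fit without pairing by line, GPR34, GPR183, GPR65, PTAFR, GPR174, LPAR5, CYSLTR2, ADGRG5 and LPAR6 fell in ALDH+ cells, and no receptor rose. A fit that pairs the libraries by line, given below, did call receptors higher. The test was edgeR's quasi-likelihood test on gene counts, two-sided, with Benjamini-Hochberg adjustment over all genes tested and a threshold of 0.05. A filter on low counts left 58 of the 75 receptor genes in it, so the 9 that fell were 15.5% of those tested, beside 5.3% of all 12811 genes tested. The background for rising was 0.835%. The median log2 change was -0.02 over the tested receptors and 0.00 over all genes tested. At an unadjusted p under 0.05, 17 receptors were lower and 6 higher in ALDH+ cells, where the shares over all genes were 11.3% and 9.23%. limma-voom called 0 receptors higher and 10 lower (backgrounds 0.898% and 5.1%). DESeq2 called 4 higher, GPR1, GPR162, GPR27 and PTGFRN, and 13 lower (backgrounds 3.84% and 6.42%). A limma test on log2(TPM + 1), where TPM is the authors’ level scaled for transcript length and depth, called 2 higher, GPR1 and GPR27, and 5 lower (backgrounds 2.3% and 4.33%). Its filter on low TPM left ADGRG5, CYSLTR2 and GPR174 untested.

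The lines paired the libraries, and adding line as a blocking factor, so that fractions are compared within each line, called 13 receptors lower and 8 higher. These were 22.4% and 13.8% of the tested receptors, beside 7.6% and 5.92% of all genes. All 9 genes above were among the 13. The block added PTGER4, GPR146, ADGRG6 and S1PR1 to the lower genes of the edgeR test, and DESeq2 without a block also called these, ADGRG6 excepted. ADGRD1, ADGRL2, ADGRL3, GPR1, GPR162, GPR27 and PTGFRN were 7 of the 8 higher genes that the block added. By family, 5 of 30 tested orphan genes fell and 4 rose with the block, 2 of 13 adhesion receptors fell and 3 rose, 3 of 8 S1P and LPA receptors fell, 2 of 3 leukotriene and PAF receptors fell, and of 4 prostanoid genes 1 fell and 1 rose. The libraries of the fractions did not overlap for 17 tested receptors lower in ALDH+ cells (29.3%, against 14.6% of all genes) and 4 higher (6.9%, against 11.2%). ALDH+ was lower than ALDH- in all 3 lines for 21 tested receptors (36.2%, against 27.7% of all genes) and higher in all 3 for 15 (25.9%, against 28.4%).

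**Figure D1:**
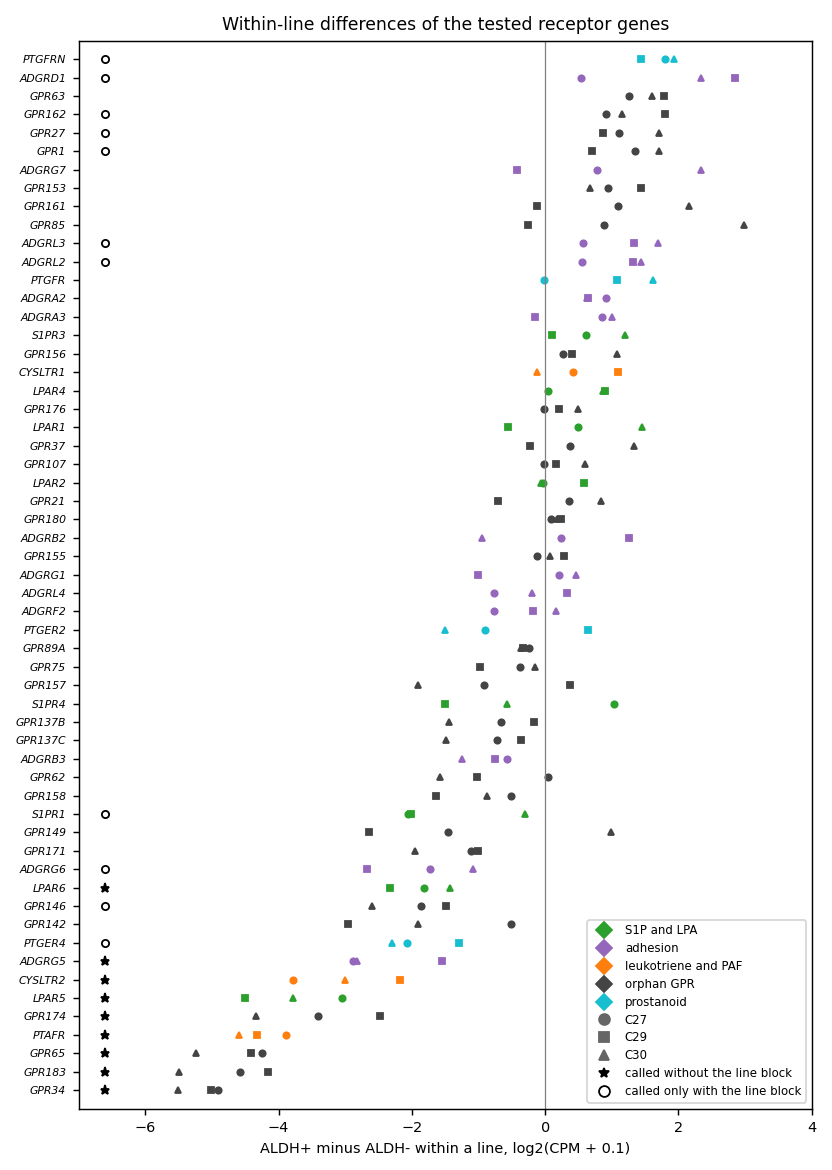
Difference between ALDH+ and ALDH- within each line, on the log2(CPM + 0.1) scale, for 57 of the 58 tested receptor genes ordered by fitted change. Colours give the family and marker shapes the line, stars mark the 9 genes called without the line block and open circles 11 called only with it. The 9 starred genes lie left of zero in every line.

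The largest fall belonged to GPR34 (ENSGALG00000016227), a receptor for lysophosphatidylserine known from microglia and other macrophages. It stood at 140.6, 124.5 and 180.2 CPM in ALDH- and at 4.57, 3.75 and 3.84 CPM in ALDH+ cells. The ALDH- libraries were thus all far above the ALDH+ libraries, which varied little among themselves. The log2 change was -5.19 (SE 0.27, n = 3 per fraction, edgeR adjusted p = 0.000691). GPR34 alone took 16.6%, 17.2% and 23.4% of all receptor counts in the ALDH- libraries and 0.8%, 0.7% and 0.8% in the ALDH+ libraries. In the authors' deposited table, which tests transcripts with DESeq2, the GPR34 transcript had the smallest p of all, with a log2 change of -5.2. At a false discovery rate under 0.05 that table calls 14 of the 90 receptor transcripts given such a rate lower, from 12 genes, and 2 higher, 1 each of GPR162 and GPR27. The table also holds a stricter adjusted p. Among receptors it was under 0.05 only for transcripts of GPR34, GPR183, GPR65, PTAFR and LPAR5, all lower. Of all 20445 transcripts with a rate it calls 5.97% lower and 3.15% higher.

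PTAFR (ENSGALG00000000783) encodes the receptor for PAF, a phospholipid that activates phagocytes and platelets. Its level was 62.7, 81.8 and 107.9 CPM in ALDH- and 4.13, 3.97 and 4.36 CPM in ALDH+ libraries. The fractions did not overlap, and the log2 change was -4.34 (SE 0.29, edgeR adjusted p = 0.0011). Almost all of its counts came from 1 of its 2 transcripts, with 1644.8, 1779.86 and 2163.36 estimated counts in ALDH- and 118.33, 88 and 108 in ALDH+ libraries.

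GPR183 (ENSGALG00000016881) encodes the oxysterol receptor EBI2, which guides B cells, dendritic cells and macrophages in lymphoid tissue. It was measured at 30.3, 19.4 and 29.9 CPM in ALDH- and 1.18, 0.994 and 0.565 CPM in ALDH+ libraries, a log2 change of -4.85 (SE 0.40, edgeR adjusted p = 0.0011). GPR65 (ENSGALG00000010595), a proton-sensing receptor of leukocytes, was at 19.7, 11.6 and 20.5 CPM in ALDH- and 0.940, 0.452 and 0.444 CPM in ALDH+ libraries, a log2 change of -4.79 (SE 0.47, edgeR adjusted p = 0.00149). For both genes C29 had the lowest ALDH- level, and it still exceeded every ALDH+ library. GPR174 (ENSGALG00000004111), a second lysophosphatidylserine receptor, known from lymphocytes, was lower still, at 4.89, 1.47 and 2.74 CPM in ALDH- and 0.369, 0.181 and 0.0404 CPM in ALDH+ libraries. Its log2 change was -3.88 (SE 0.79, edgeR adjusted p = 0.0252).

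Among the LPA receptors some members fell and others did not pass, and none was called higher with or without the block. LPAR5 (ENSGALG00000014455), expressed on leukocytes and platelets in mammals, was at 11.1, 8.31 and 7.42 CPM in ALDH- and 1.24, 0.271 and 0.444 CPM in ALDH+ libraries, a log2 change of -3.74 (SE 0.60, edgeR adjusted p = 0.00911). LPAR6 (ENSGALG00000016998), linked to hair growth in humans, was at 12.9, 15.3 and 17.5 CPM in ALDH- and 3.59, 2.98 and 6.42 CPM in ALDH+ libraries, a log2 change of -1.81 (SE 0.37, edgeR adjusted p = 0.0265). Neither gene's fractions overlapped. LPAR2, which couples LPA to calcium release, lay at 20.7 to 24.8 CPM in ALDH- and 19.8 to 37.3 CPM in ALDH+ libraries, overlapping ranges with a log2 change of 0.22 (edgeR adjusted p = 0.723). LPAR1, the receptor first described for LPA, changed by 0.29 (edgeR adjusted p = 0.745) and LPAR4, which raises cyclic AMP, by 0.42 (edgeR adjusted p = 0.757), and neither passed. LPAR3 stayed under the count filter, with 6, 7 and 12 counts in ALDH- and 0, 0 and 2 in ALDH+ libraries.

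S1PR1, the S1P receptor that directs lymphocyte exit from lymphoid organs and holds endothelium together, was at 58.8, 51.8 and 33.7 CPM in ALDH- and 14.0, 12.8 and 27.3 CPM in ALDH+ libraries. C27 and C29 differed by much more than C30, where the fractions were close. Without the block S1PR1 did not pass (log2 -1.42, edgeR adjusted p = 0.0705), and with the block it fell (log2 -1.48, SE 0.39, edgeR adjusted p = 0.0484). Without the ALDH+ library of C30 it passed without a block (edgeR adjusted p = 0.0244), with a log2 change of -1.83. In every other omission of a single library S1PR1 did not pass (edgeR adjusted p up to 0.227). In the authors' DESeq2 results its transcripts differed, at log2 -1.8 (false discovery rate 0.0005) and -0.5 (0.7064). S1PR3 and S1PR4, each under 1.1 CPM in every library, did not pass in either fit.

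CYSLTR2 (ENSGALG00000050065), a receptor for cysteinyl leukotrienes found on myeloid and endothelial cells, was at 4.51, 1.79 and 1.99 CPM in ALDH- and 0.235, 0.316 and 0.162 CPM in ALDH+ libraries. Every ALDH- library exceeded every ALDH+ library, and the log2 change was -3.52 (SE 0.59, edgeR adjusted p = 0.0114). CYSLTR1, its paralog, was at 3.60, 0.964 and 1.25 CPM in ALDH- and 4.83, 2.17 and 1.13 CPM in ALDH+ libraries. Its ranges overlapped and its change of 0.48 did not pass (edgeR adjusted p = 0.735). LTB4R, the leukotriene B receptor of neutrophils, totalled 19 counts in ALDH- and 0 in ALDH+ cells. Against a floor of 3 counts over the ALDH+ group it was at least 7.12-fold lower, and it did not enter the main test, though DESeq2, which tests it, called it lower.

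Of the prostanoid receptors, PTGER4, a prostaglandin E receptor that raises cyclic AMP, was at 4.43, 0.918 and 2.59 CPM in ALDH- and 0.974, 0.316 and 0.444 CPM in ALDH+ libraries. The lines differed enough for the fractions to overlap, and in edgeR PTGER4 passed with the block (log2 -2.12, SE 0.42, edgeR adjusted p = 0.0197, against 0.129 without). PTGER2, which also raises cyclic AMP, changed by -0.30 (edgeR adjusted p = 0.809) and PTGFR, the prostaglandin F receptor, by 0.81 (edgeR adjusted p = 0.471). PTGFRN was higher in ALDH+ cells of every line, at 12.2, 4.31 and 4.34 CPM in ALDH- and 42.6, 11.8 and 16.9 CPM in ALDH+ libraries. The ALDH- library of C27 lay above the ALDH+ library of C29, so the fractions overlapped across lines, and PTGFRN rose with the block (log2 1.74, SE 0.24, edgeR adjusted p = 0.00513) and not without it (edgeR adjusted p = 0.145).

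**Figure D2:**
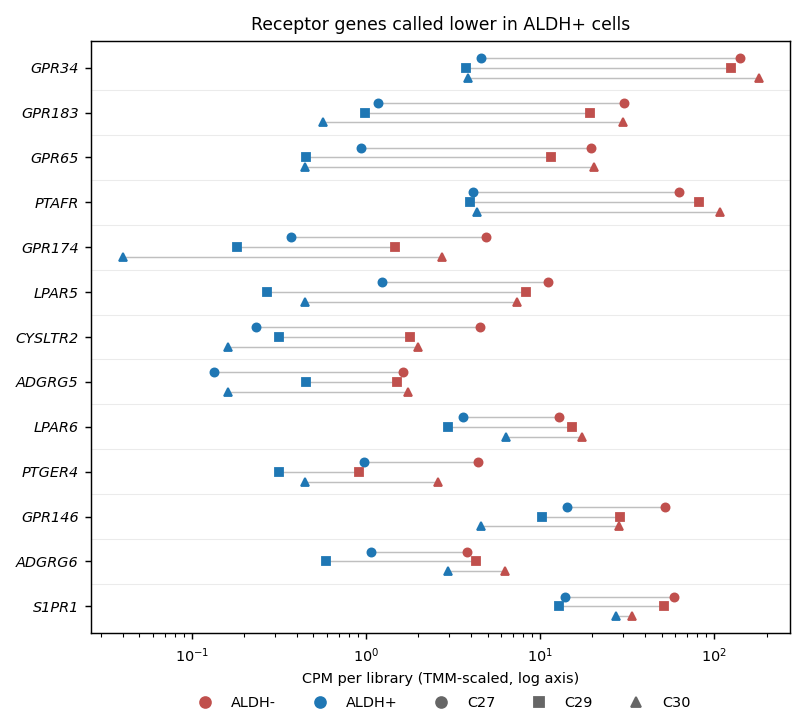
CPM per library, on a log axis, for the 13 receptor genes lower in ALDH+ cells with the line as a block. Red points are ALDH- and blue points ALDH+ libraries, with a marker shape for each line. For GPR34, GPR183, GPR65 and PTAFR the fractions lie more than a decade apart, whereas PTGER4 overlaps.

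The adhesion receptors split by member. ADGRG5 (ENSGALG00000001149), a short leukocyte adhesion receptor, was at 1.63, 1.52 and 1.74 CPM in ALDH- and 0.134, 0.452 and 0.162 CPM in ALDH+ libraries, a log2 change of -2.71 (SE 0.59, edgeR adjusted p = 0.0325). ADGRG1, next to ADGRG5 in the genome with no protein-coding gene between them in the RefSeq order, had the highest mean TPM of the adhesion receptors. It lay at 14.2 to 20.7 CPM in ALDH- and 10.3 to 21.7 CPM in ALDH+ libraries, and its change of -0.06 did not pass (edgeR adjusted p = 0.942). ADGRG6, which binds type IV collagen and is needed for myelination in zebrafish and mouse, was at 3.79, 4.27 and 6.33 CPM in ALDH- and 1.07, 0.587 and 2.95 CPM in ALDH+ libraries. Its fractions did not overlap, and it fell with the block (log2 -1.86, SE 0.42, edgeR adjusted p = 0.0306) and not without it (edgeR adjusted p = 0.183).

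The adhesion receptors that rose with the block were ADGRD1 and the latrophilins ADGRL2 and ADGRL3, which bind teneurins and FLRT proteins on neighbouring cells. ADGRD1, a receptor studied in glioblastoma, was at 13.0, 5.28 and 1.10 CPM in ALDH- and 18.8, 38.7 and 5.94 CPM in ALDH+ libraries (block log2 1.92, SE 0.48, edgeR adjusted p = 0.0428). ADGRL2 was at 17.3, 7.99 and 4.09 CPM in ALDH- and 25.3, 20.0 and 11.2 CPM in ALDH+ libraries (block log2 1.10, SE 0.27, edgeR adjusted p = 0.0418). ADGRL3 was at 11.7, 3.12 and 3.39 CPM in ALDH- and 17.4, 8.04 and 11.2 CPM in ALDH+ libraries (block log2 1.21, SE 0.31, edgeR adjusted p = 0.0476). In all of them ALDH+ exceeded ALDH- within each line while the lines themselves differed as much as the fractions. Without the block their adjusted p were 0.326, 0.374 and 0.374.

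GPR27, an orphan receptor conserved in vertebrate brain, was the receptor with the highest mean level per transcript length in ALDH+ cells, at 43.5 TPM against 13.1 TPM in ALDH- cells. Per library it was at 10.2, 12.2 and 12.4 CPM in ALDH- and 22.2, 22.3 and 40.7 CPM in ALDH+ libraries, so the fractions did not overlap and C30 was highest. It rose with the block (log2 1.24, SE 0.25, edgeR adjusted p = 0.0225) and missed the threshold without it (edgeR adjusted p = 0.054). GPR1, a chemerin receptor, was at 12.1, 22.1 and 11.1 CPM in ALDH- and 31.0, 36.1 and 36.4 CPM in ALDH+ libraries (block log2 1.26, SE 0.26, edgeR adjusted p = 0.0238, against 0.075 without). GPR162, an orphan, was at 11.3, 7.71 and 5.33 CPM in ALDH- and 21.4, 27.1 and 12 CPM in ALDH+ libraries (block log2 1.30, SE 0.27, edgeR adjusted p = 0.0235, against 0.116 without). For these 3 genes every ALDH+ library exceeded every ALDH- library.

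GPR63, an orphan at 1.10, 0.230 and 0.199 CPM in ALDH- and 2.75, 1.04 and 0.807 CPM in ALDH+ libraries, just missed the threshold with the block (log2 1.74, edgeR adjusted p = 0.0508). Block fits added after seeing the data called it higher, with 10 or more counts as the filter (edgeR adjusted p = 0.0476), library size only or DESeq2 size factors. GPR146, an orphan linked to liver cholesterol output in mouse, was at 52.3, 28.9 and 28.3 CPM in ALDH- and 14.3, 10.3 and 4.56 CPM in ALDH+ libraries. Its fractions did not overlap, and it fell with the block (log2 -1.99, SE 0.28, edgeR adjusted p = 0.00579) and narrowly missed without it (edgeR adjusted p = 0.0508).

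**Figure D3:**
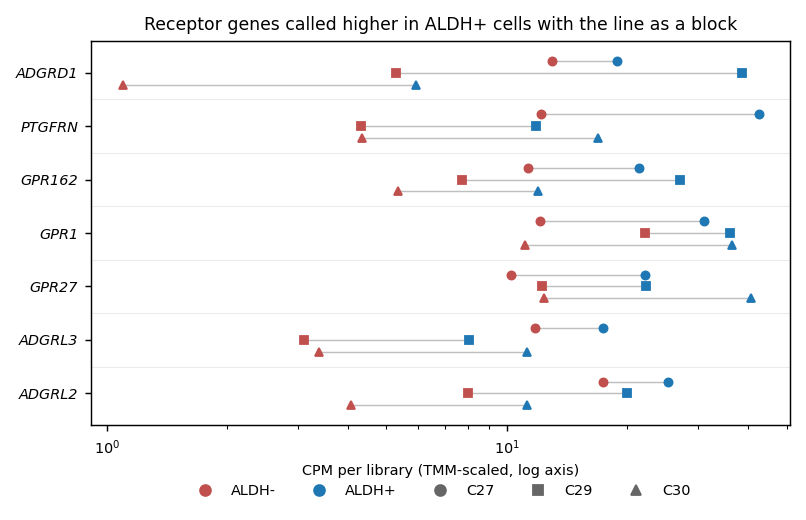
CPM per library, on a log axis, for 7 of the 8 receptor genes higher in ALDH+ cells with the line as a block, with red points for ALDH-, blue points for ALDH+ and a marker shape for each line. Within each line the ALDH+ point lies right of the ALDH- point, and for GPR27, GPR1 and GPR162 the fractions do not overlap.

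Levels set against transcript length showed different leading receptors in the fractions. In ALDH- cells GPR34 led with a mean of 58.5 TPM, followed by GPR137B, a lysosomal membrane protein, at 31.8 TPM and PTAFR at 24.3 TPM. In ALDH+ cells GPR27 was followed by LPAR2 at 29.6 TPM, GPR137B at 25.7 TPM and GPR107, a Golgi protein, at 24.5 TPM, while GPR34 was at 2.20 TPM. Of the 75 genes, 29 had a mean under 1 TPM in both fractions. The 9 receptors that fell without the block summed to 288.3, 265.7 and 369.9 CPM in ALDH- and 16.4, 13.4 and 16.4 CPM in ALDH+ libraries. They were chosen by their fall in these same libraries, so that gap restates the calls. The other 66 receptors summed to 560.8, 459.1 and 400.8 CPM in ALDH- and 524.8, 514.4 and 452.1 CPM in ALDH+ libraries, where the fractions overlapped. That sum mixes the 4 lower and 8 higher genes added by the block with genes not called.

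**Figure D4:**
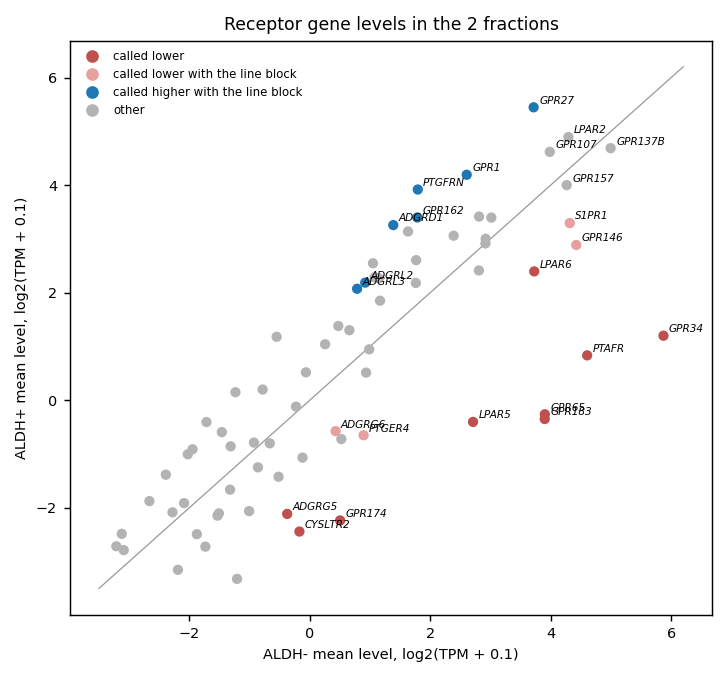
Mean level of 73 of the 75 receptor genes in ALDH- cells (x axis) and ALDH+ cells (y axis), both as log2(TPM + 0.1), with the diagonal marking equal levels. Red points were called lower, pale red points lower with the line block and blue points higher with the line block. GPR34 lies farthest right and GPR27 highest.

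Macrophage markers moved with the receptors that fell. Of 22 macrophage markers found in the files, 20 were tested and 19 fell, beside 5.3% of all genes. Their median log2 change was -4.97, and none was at 0 in ALDH+ cells. CSF1R, the macrophage growth factor receptor, was at 650.3, 294.8 and 500.7 CPM in ALDH- and 29.3, 23.9 and 9.25 CPM in ALDH+ libraries. Of 7 tested heterophil and mast cell markers 5 fell, and their list summed to 15213.2 to 44080.5 CPM in ALDH- and 494.8 to 919.7 CPM in ALDH+ libraries. That sum was mostly AVD, avidin, and whether AVD marks these cell types here was not tested. KIT, the mast cell growth factor receptor, was at 2.39 to 3.08 CPM in ALDH- and 0.0404 to 0.181 CPM in ALDH+ libraries. Of 8 tested lymphocyte markers 5 fell, with sums of 455.0 to 960.0 CPM in ALDH- and 25.8 to 42.6 CPM in ALDH+ libraries, while PAX5 had no count in any library. These sums were mostly the general leukocyte genes IL2RG, at 279 to 512 CPM in ALDH- libraries, and PTPRC, at 117.5 to 207.6 CPM. Of the tested lymphocyte markers, those that did not pass were the T cell genes CD3E (log2 1.29), CD3D (-0.58) and LCK (-0.19). The 5 that fell were the rest of those tested, so the fall was not limited to IL2RG and PTPRC. The part of these cell types in the receptor changes was not tested.

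Counted per 1000 macrophage marker counts, the receptors that fell differed in how they related to those markers. GPR34 stood at 19.8, 18.6 and 13.9 in ALDH- and 10.1, 9.38 and 16.7 in ALDH+ libraries, and GPR183 at 4.26, 2.89 and 2.3 against 2.6, 2.49 and 2.46. PTAFR stood at 8.82, 12.2 and 8.33 against 9.14, 9.95 and 19.0. For these 3 genes the fractions overlapped once set against the markers, as they did for GPR65, LPAR5, CYSLTR2 and GPR174. LPAR6 stood at 1.81, 2.29 and 1.35 in ALDH- and 7.95, 7.46 and 27.9 in ALDH+ libraries, and GPR146 at 7.35, 4.31 and 2.18 against 31.7, 25.7 and 19.8. S1PR1 stood at 8.26, 7.73 and 2.6 in ALDH- and 31.0, 32.0 and 118.9 in ALDH+ libraries. For LPAR6, GPR146 and S1PR1, and also for ADGRG5, ADGRG6 and PTGER4, every ALDH+ library was above every ALDH- library on this scale, so these genes fell less than the macrophage markers did. ADGRG5 had 4, 10 and 4 counts in ALDH+ libraries and PTGER4 29, 7 and 11, so their ratios rest on few counts. The same holds for overlapping genes, with ALDH+ counts of 11, 4 and 1 for GPR174 and 7, 7 and 4 for CYSLTR2. LPAR5 had 37, 6 and 11 and GPR65 28, 10 and 11. In C27 the ratio of ADGRG5 was 0.23 in ALDH- and 0.3 in ALDH+ cells. The ratio has the markers' own spread in it, and it was given no test.

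**Figure D5:**
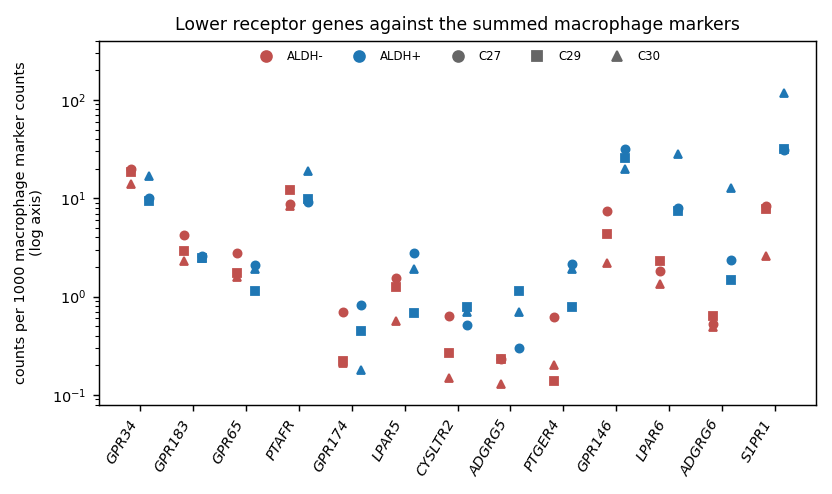
Counts of each of the 13 lower receptor genes per 1000 counts of the summed macrophage markers, on a log axis, with red points for ALDH-, blue points for ALDH+ and a marker shape for each line. GPR34, GPR183, PTAFR, GPR65, LPAR5, CYSLTR2 and GPR174 overlap between fractions. ADGRG5, PTGER4, LPAR6, GPR146, ADGRG6 and S1PR1 are higher in every ALDH+ library.

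Some fibroblast and epithelial markers rose in the block fit, as the receptors above did. With the block, 4 of 11 tested fibroblast markers rose (LUM, MFAP5, PDGFRA and PDGFRB) and 0 fell, beside 5.92% and 7.6% of all genes. Without the block 0 of them rose, beside 0.835% of all genes, and the list median was 0.81. Of 6 tested epithelial markers 2 rose with the block, KRT18 and WT1, and CDH1, the epithelial cadherin, fell. Without the block 0 epithelial markers rose and CDH1 was the one that fell. CDH1 was at 7.88, 3.99 and 49.5 CPM in ALDH- and 0.739, 1.36 and 1.53 CPM in ALDH+ libraries (edgeR adjusted p = 0.0471 without the block). Of 3 tested endothelial markers PECAM1 fell and ERG rose with the block (log2 1.23, edgeR adjusted p = 0.0251), and of 2 tested erythroid and thrombocyte markers 1 fell. The part of these cell types in the receptor changes was not tested either.

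The enzymes that make and remove the receptors' ligands were followed in separate lists. Beside the counts in these and the later lists, 5.3% of all genes fell and 0.835% rose without the block. With the block 7.6% fell and 5.92% rose. Of 14 tested prostanoid genes 1 fell without the block and 0 rose, and the median log2 change was 0.46. The gene that fell was TBXAS1, thromboxane synthase, at 69.6 ± 28.5 CPM in ALDH- and 2.96 ± 1.84 CPM in ALDH+ cells (SD, n = 3 each), a log2 change of -4.55 (SE 0.56, edgeR adjusted p = 0.00298). With the block ABCC4, an exporter of prostanoids, rose (log2 1.15, edgeR adjusted p = 0.0154) and PTGR1, a prostaglandin reductase, fell (log2 -1.02, edgeR adjusted p = 0.0324). PTGS2, the inducible cyclooxygenase, was at 628.2, 396.8 and 429.0 CPM in ALDH- and 634.7, 1459 and 2372 CPM in ALDH+ libraries and did not pass (log2 1.62, edgeR adjusted p = 0.0975).

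Of 10 tested leukotriene and PAF genes 2 fell in both fits and 0 rose, with a median of -0.42. ALOX5AP, which presents arachidonic acid to the lipoxygenase, was at 177.9 ± 92.0 CPM in ALDH- and 5.08 ± 2.13 CPM in ALDH+ cells (SD, n = 3 each), with an edgeR adjusted p of 0.00155. LTA4H, which makes leukotriene B, was at 513.5 ± 213.4 CPM in ALDH- and 95.3 ± 4.27 CPM in ALDH+ cells (SD, n = 3 each), with an edgeR adjusted p of 0.00415. Of 12 tested S1P and LPA genes 2 fell and 0 rose in both fits, around a median of 0.00. These were ASAH1, acid ceramidase (log2 -1.93, edgeR adjusted p = 0.00637), and SPHK1, a sphingosine kinase (log2 -1.98, edgeR adjusted p = 0.018), so both genes act on the S1P side of that list.

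Downstream of the receptors, 0 of 10 tested G alpha subunits passed without the block, and with it GNAI2, an inhibitory subunit abundant in leukocytes, fell (log2 -0.90, edgeR adjusted p = 0.0422). Of 5 tested genes for receptor kinases and arrestins GRK3 fell (log2 -1.73, SE 0.32, edgeR adjusted p = 0.0177), and GRK2 joined it with the block (log2 -1.26, edgeR adjusted p = 0.0225). These kinases phosphorylate active receptors so that arrestins bind. Of 13 tested RGS proteins, which speed the shut-off of G alpha subunits, 3 fell and 0 rose. RGS18, known from platelets and myeloid cells, was at 39.2 ± 9.25 CPM in ALDH- and 1.30 ± 0.37 CPM in ALDH+ cells (SD, n = 3 each), with an edgeR adjusted p of 0.0011. RGS1, a leukocyte RGS protein, fell by 4.75 on the log2 scale (SE 0.59, edgeR adjusted p = 0.00303) and RGS19 by 2.37 (edgeR adjusted p = 0.0393), and with the block RGS10 and RGS4 fell as well.

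Some proteins known to bind adhesion receptors rose in ALDH+ cells in the block fit. Of 18 tested, 6 rose with the block and 0 fell, beside 5.92% and 7.6% of all genes. Without the block 0 passed, with a median log2 change of 0.95. COL4A1 and COL4A2, chains of the type IV collagen that ADGRG6 binds, rose by 2.20 and 2.37 on the log2 scale (edgeR adjusted p = 0.0119 and 0.0275, block). FLRT2, a latrophilin ligand, rose by 1.33 and UNC5B, which binds FLRT proteins, by 1.14 (block), and the thrombospondins THBS1 and THBS2 rose by 1.56 and 1.52. COL3A1, the collagen that binds ADGRG1, changed by 0.81 and did not pass (edgeR adjusted p = 0.536).

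Between the lines, 0 of 58 receptors passed an F test in edgeR, where 0.367% of all genes did. At an unadjusted p under 0.05 there were 18 (31.0%, against 19.9% of all genes), while DESeq2 called 8 (background 7.34%) and limma-voom 0 (background 0.781%). PTGFRN came first (edgeR adjusted p = 0.0808), and its level was highest in C27 in both fractions. LPAR4 came next (edgeR adjusted p = 0.119), at 8.48, 3.17 and 1.59 CPM in ALDH- and 8.76, 5.96 and 2.99 CPM in ALDH+ libraries, so C27 was highest and C30 lowest in each fraction. GPR176, an orphan linked to the circadian clock in mouse, ran the other way, at 3.26, 3.90 and 8.07 CPM in ALDH- and 3.22, 4.52 and 11.3 CPM in ALDH+ libraries (edgeR adjusted p = 0.122). ADGRL2, described above, followed the order of LPAR4 (edgeR adjusted p = 0.124).

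Genes that lie next to each other were not called alike in every case, as ADGRG5 and ADGRG1 above show. In the RefSeq order of chicken genes, GPR34 follows GPR82 with no protein-coding gene between them, and GPR82 had 11, 1 and 6 counts in ALDH- and 2, 2 and 3 in ALDH+ libraries, too few for the main test. GPR183 likewise adjoins GPR18, a leukocyte receptor with 19, 7 and 7 counts in ALDH- and 5, 4 and 1 in ALDH+ libraries. LPAR6 and CYSLTR2 lie 1 protein-coding gene apart and both fell, whereas CYSLTR1 and LPAR4, also 1 gene apart, both failed to pass. GPR174 lies 2 genes from LPAR4 and fell.

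When all 75 genes were tested without the filter on low counts, with 10 or more counts as the sole requirement, the same numbers passed without the block, 9 lower and 0 higher (backgrounds 4.56% and 0.85%), so none of the 17 genes left out of the main test was called. Just inside the threshold for membership were GPR39 with 10.04 counts and GPR37L1 with 11, and just outside it GPR141, GPR50 and GPR83 with 7 each. Of the 16 genes outside, GPR12, GPR139, GPR15, GPR182, GPR19 and GPR26 had no count in any library, and FFAR4, the long-chain fatty acid receptor and the single gene of its family found, had 6.

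Leaving out single libraries changed which falls passed, and the share of all genes called lower ran from 3.25% to 5.77%. With every library that share was 5.3%. GPR34, GPR183, GPR65, PTAFR and LPAR5 passed without each library in turn, and of these LPAR5 failed when both libraries of C29 were omitted (edgeR adjusted p = 0.101). GPR174 failed to pass with C27's ALDH- library omitted (edgeR adjusted p = 0.0503) or C30's (0.0771), and with C29's ALDH+ library omitted (0.0952) or C30's (0.0609). CYSLTR2 failed with C27's ALDH+ library omitted (edgeR adjusted p = 0.061). LPAR6 failed with C29's ALDH- library omitted (edgeR adjusted p = 0.0867) or C30's (0.123), and with C27's ALDH+ library omitted (0.114) or C29's (0.0804). ADGRG5 passed with C29's ALDH+ library omitted and failed in the other 5 omissions, with edgeR adjusted p from 0.0545 to 0.144. PTGFRN and ADGRL3, not called higher without the block, passed with C27's ALDH- library omitted (edgeR adjusted p = 0.049 and 0.0432), and GPR1 did with C29's ALDH- library omitted (0.0335). In these omissions 2.84% and 0.0991% of all genes were called higher.

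With the block, 10 of the 21 called receptors passed without each line in turn, the same 5 with GPR174, CYSLTR2, LPAR6, GPR146 and PTGFRN. Each of these fits had few libraries left to measure spread, so its p-values leaned mostly on the spread pooled across genes. Omitting C27 left 9 lower and 2 higher (5.48% and 2.44% of all genes), with ADGRG5, ADGRG6, PTGER4 and S1PR1 no longer called lower and ADGRD1 and PTGFRN the receptors still higher. Omitting C29 gave 16 lower and 7 higher, as the shares over all genes also rose, to 10% and 8.04%, with ADGRL2 and ADGRL3 lost among the higher. Omitting C30 gave 12 lower and 3 higher (6.3% and 3.3% of all genes), with ADGRG5 and PTGER4 lost among the lower and GPR1, GPR162 and PTGFRN still higher.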

How the data were processed

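Chicken ALDH- and ALDH+ cells of 3 lines were sequenced as paired 125 bp reads, per the labels. The deposited tables give estimated counts and TPM per transcript; the header words (target_id, eff_length) are those of kallisto, and the submitters' processing notes name FastQC, Trimmomatic, HISAT2, kallisto, DESeq2 and GRCg6a, with no role or version. The authors' deposited DESeq2 table adds size-factor normalised signal, a fold ratio, log2 fold changes with SE, a Wald score and p-values. It gives both an adjusted p and a false discovery rate, and its counts use the false discovery rate. Transcript and effective lengths are deposited as well.

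Estimated counts (42.2% whole within 0.001) were summed per gene and rounded; 319 transcripts with no gene identifier (0.285% to 0.328% of counts) were left out. Genes were tested with edgeR 4.0.16 in R 4.3.3 (TMM, filterByExpr with a minimum count of 10 and total of 15), where SE is the log2 change over the square root of F. Alternatives used limma 3.58.1 and DESeq2 1.42.0. The code was tested on simulated data. The lines pair the libraries by design, and deviations of a line's fractions correlated at 0.66, 0.17 and 0.49. With 3 libraries per fraction and no statement of separate cultures or birds beyond the lines, p-values measure the spread between these libraries. Bounds at 0 cover counting error only.

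Receptors, related lists and tests were chosen with earlier results of these data known. Named were all receptors called in either fit, the highest per family by TPM, the 4 with the smallest p between lines and up to 4 genes per list by p with the block; other named genes were chosen after their values were seen. RefSeq gene order (GRCg7b) was used for neighbours, with 70 of 75 receptors found by symbol. A planned promoter motif search was not run, as no sequence was used here. Values of a few receptor genes are not reported here.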

Additional observations from a re-analysis of the deposited data

Results flagged for a closer look

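S1PR4, an S1P receptor of leukocytes, moved in opposite directions between lines, at 1.03 in C27 and -1.51 in C29 on the log2(CPM + 0.1) scale (ALDH+ minus ALDH-). For C27, C29 and C30 its counts were 3, 18 and 13 in ALDH- and 10, 5 and 10 in ALDH+ cells. The difference between lines was not tested, since each line had 1 library per fraction.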

How the results depend on the processing

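The 9 receptors lower in ALDH+ cells became 5 with log2(TPM + 1) and 5 with log2(TPM + 0.1), where GPR34, GPR183, GPR65, PTAFR and LPAR5 passed. LPAR6 was tested on TPM and did not pass, while a filter on low TPM left ADGRG5, CYSLTR2 and GPR174 untested. The number lower ran from 4 to 16 when libraries or lines were left out. The lowest, 4, was without both libraries of C29, and the highest, 16, was with the replicate block without that line; the cause was not tested. Replicate block, DESeq2, limma-voom and no filter stayed within 1.5 times. The 0 higher (0.835% of all genes were) became 8 with the replicate block (5.92%), 4 with DESeq2 (3.84%) and 2 with log2(TPM + 1) (2.3%) or log2(TPM + 0.1) (2.04%). It became 1 (GPR27) with DESeq2 size factors in edgeR (1.08%), with library size only (1.06%) or with no filter (0.837%). With libraries or lines left out it ran from 0 to 7. The replicate block gave 2, 7 and 3 without C27, C29 and C30, beside 2.44%, 8.04% and 3.3% of all genes. Of settings added after seeing the data, the replicate block gave 9 with 10 or more counts (6.32% of all genes). It gave 10 with library size only (9.91%) and 9 with DESeq2 size factors (6.74%), each time with GPR63 among them. Between lines the 0 became 8 with DESeq2 (7.34% of all genes called), 2 with library size only (3.27%), 1 with no filter (1.68%), and ran from 0 to 13, with 13 omitting C29's ALDH- library (15.1%) and 12 omitting its ALDH+ library (12.2%). Library size only moved the median of all genes by 0.18 and log2(TPM + 1) by 0.36. Of the single-gene values recomputed, 381 kept direction and side of the threshold, 86 passed anew, 29 no longer passed and 0 reversed. Depth limits the 17 receptors not tested and the 29 under 1 TPM.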
